A study of Mus musculus with 4 samples.

Results

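The loci of the 3 hematopoietic GATA factors Gata1, Gata2 and Gata3 were examined for accessible chromatin in mouse hematopoietic stem cells (HSCs) with and without Med23. A locus was the annotated gene with 120 kb on each side, and every peak overlapping it was taken, without regard to its strength. This gave 33 of the 37919 peaks of the WT list and 39 of the 37639 peaks of the KO list. Joined by overlap, they formed 43 of 45475 accessible regions on the autosomes and chromosome X, with 11 at Gata1, 15 at Gata2 and 17 at Gata3. On mm10, Gata1 lies at chrX:7959260-7978071 on the minus strand, Gata2 at chr6:88193891-88207032 on the plus strand and Gata3 at chr2:9857078-9890034 on the minus strand. The study asked how loss of Med23, a subunit of the Mediator complex that links transcription factors to RNA polymerase, changes the chromatin of HSCs. The assay was ATAC-seq, which reads out open DNA through insertion of adapters by the Tn5 transposase. WT mice carried floxed Med23 alleles and no cre, and KO mice carried the same floxed alleles with Mx1-cre. All were adult animals of the C57BL/6 strain. Mx1-cre is driven by an interferon-inducible promoter and is not confined to stem cells, and the study's methods describe induction of deletion by repeated injection of poly(I:C). From bone marrow, 5000 cells per sample were sorted, by the labels as CD150+ CD34- CD48- LSK cells (lineage-negative, Sca1+, Kit+), whereas the methods leave out CD34. There were 2 samples per genotype by the labels, which point both samples to a single peak list. So 1 list was set against 1 list, no difference has a replicate check, and no p-value is given.

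GATA factors are zinc finger proteins that bind DNA at the motif GATA flanked by A or T on the left and A or G on the right. Gata2 is required for the formation and maintenance of HSCs, Gata1 drives erythroid and megakaryocytic differentiation and replaces GATA2 at shared sites as cells mature, and Gata3 is best known for T cell development but is also expressed in HSCs. Gata2 is transcribed from a distal promoter used mainly in hematopoietic cells and from a proximal promoter. Among its known enhancers are a distant upstream element and an intronic element in which an E-box, the motif of TAL1 and its partners, stands beside a GATA motif.

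Regions are named here by the distance of the summit, the position of highest signal, from the main start site of the gene, positive in the direction of transcription. The summit is that of the list with the higher −log10 q at the region. The sequences of 4 Gata2 regions are given first, because they are the intronic enhancer, the region nearest to the known upstream enhancer, and the regions in the KO list only at and upstream of the distal promoter. All are from the mm10 reference (GRCm38.p6), 5′ to 3′ on the plus strand, which is the strand of Gata2. Capitals mark the E-box with its GATA motif in the first, GATA motifs on either strand in the next pair, and CG dinucleotides in the last. The stretches are chr6:88203095-88203294, chr6:88117011-88117210, chr6:88189629-88189828 and chr6:88193691-88193890.
Gata2 intron +9.4 kb: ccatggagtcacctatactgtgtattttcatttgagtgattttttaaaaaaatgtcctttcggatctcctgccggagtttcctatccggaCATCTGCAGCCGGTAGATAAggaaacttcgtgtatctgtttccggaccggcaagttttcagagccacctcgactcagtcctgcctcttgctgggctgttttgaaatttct
Gata2 upstream -77 kb: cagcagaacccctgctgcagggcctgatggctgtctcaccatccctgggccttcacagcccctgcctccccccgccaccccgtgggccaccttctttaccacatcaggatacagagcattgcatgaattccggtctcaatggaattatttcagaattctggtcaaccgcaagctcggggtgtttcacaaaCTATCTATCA
Gata2 upstream -4.3 kb: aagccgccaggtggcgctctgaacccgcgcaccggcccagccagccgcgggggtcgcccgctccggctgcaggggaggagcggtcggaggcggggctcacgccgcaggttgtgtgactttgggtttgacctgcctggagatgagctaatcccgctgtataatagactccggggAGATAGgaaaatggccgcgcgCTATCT
Gata2 distal promoter: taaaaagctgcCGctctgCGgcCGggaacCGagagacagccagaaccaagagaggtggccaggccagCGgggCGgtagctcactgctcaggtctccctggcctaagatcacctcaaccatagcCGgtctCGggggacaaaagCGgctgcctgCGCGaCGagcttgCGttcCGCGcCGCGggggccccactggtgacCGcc

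At the Gata3 locus, 4 sequences are shown. The first is the region of highest pileup at any of the 3 loci. The next is a region in the KO list only near a Gata3 start site. The last pair are the 2 regions with the largest KO to WT ratios, and each holds an E-box beside a GATA motif. At −83 kb that motif, chr2:9962052-9962070, lies in the WT peak but outside the KO peak, which ends at 9962026. All 4 are printed on the minus strand, the strand of Gata3 and of Taf3. Capitals mark an AP1 motif in the first, a RUNX motif in the next and the E-box with its GATA motif in the last pair. In the +9.2 kb stretch they lie on the opposite strand and so read as the reverse complement. Stretches with a GATA motif were placed to hold it, and of these only that of the Gata2 intron holds the summit of both lists. The −77 kb stretch holds the WT summit alone. Those at Gata2 −4.3 kb, Gata3 +9.2 kb and Taf3 −83 kb hold no summit of either list, nor does the distal promoter stretch. The stretches are chr2:9879589-9879788, chr2:9872836-9873035, chr2:9869156-9869355 and chr2:9961961-9962160.
Gata3 promoter side -1.1 kb: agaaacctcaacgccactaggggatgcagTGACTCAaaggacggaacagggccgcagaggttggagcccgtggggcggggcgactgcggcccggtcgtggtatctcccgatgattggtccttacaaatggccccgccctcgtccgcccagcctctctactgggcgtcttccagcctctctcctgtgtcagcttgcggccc
Gata3 intron +5.7 kb: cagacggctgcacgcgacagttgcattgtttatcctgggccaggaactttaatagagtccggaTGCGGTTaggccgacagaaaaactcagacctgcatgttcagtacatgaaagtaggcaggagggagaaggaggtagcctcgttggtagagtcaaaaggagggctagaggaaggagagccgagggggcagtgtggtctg
Gata3 intron +9.2 kb: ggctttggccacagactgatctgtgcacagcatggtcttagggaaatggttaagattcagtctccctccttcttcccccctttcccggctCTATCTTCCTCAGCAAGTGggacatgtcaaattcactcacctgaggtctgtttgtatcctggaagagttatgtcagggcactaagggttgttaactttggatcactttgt
Taf3 intron -83 kb: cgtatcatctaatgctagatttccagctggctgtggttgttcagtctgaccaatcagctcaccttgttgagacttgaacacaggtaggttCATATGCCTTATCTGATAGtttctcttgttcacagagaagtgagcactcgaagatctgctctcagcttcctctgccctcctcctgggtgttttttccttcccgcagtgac

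The lists hold no read counts, so sequencing depth is unknown. Each peak has the authors' fold enrichment of its summit over the local background and a −log10 p, and together these gave back the pileup, the whole number of fragments stacked at the summit. The median pileup over all peaks was 18 in WT and 19 in KO, the smallest was 6 in both, and the median fold enrichment was 6.38 in WT and 7.44 in KO. The promoters of 6 of 10 stem cell markers were open in each list, among them Kit, Mecom and Hlf, beside 58.1% of all coding genes open in both lists, while Ly6a, which encodes Sca1, and Slamf1, which encodes CD150, had no promoter peak in either. Of 16 genes of mature lineages, 3 had a promoter peak in WT, among them S100a8 and Pf4, and 3 in KO, among them Pf4 and Gp9. The part of such cells in the values below was not tested. At Med23 itself, the promoter had a pileup of 64 in WT and 85 in KO, so the peak lists do not check the deletion. 

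Across the 3 GATA loci, 29 of the 43 regions were shared by WT and KO, 4 were called in WT alone and 10 in KO alone. Of the WT peaks, 4 of 33 had no KO peak (12.1%), beside 21.7% of all WT peaks. Of the KO peaks, 10 of 39 had no WT peak (25.6%), beside 20.7% of all KO peaks. When peaks under a −log10 q of 10 were set aside, 0 of 19 WT and 5 of 24 KO peaks had no match, beside 10.7% of such WT peaks and 24.4% of such KO peaks. The 95% Wilson intervals of the shares of all peaks at the loci, 4.82 to 27.3% for WT and 14.6 to 41.1% for KO, hold the shares of the whole lists. At Gata1, all 9 WT peaks were met by a KO peak (95% Wilson interval of the share, for counting error only, 70.1 to 100%). At Gata2 it was 10 of 11 (62.3 to 98.4%) and at Gata3 10 of 13 (49.7 to 91.8%). In the other direction, 9 of 11 KO peaks at Gata1 (52.3 to 94.9%) and 10 of 14 at both Gata2 and Gata3 (45.4 to 88.3%) were met by a WT peak. These intervals overlap, and a difference between the loci was not tested.

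**Figure D1:**
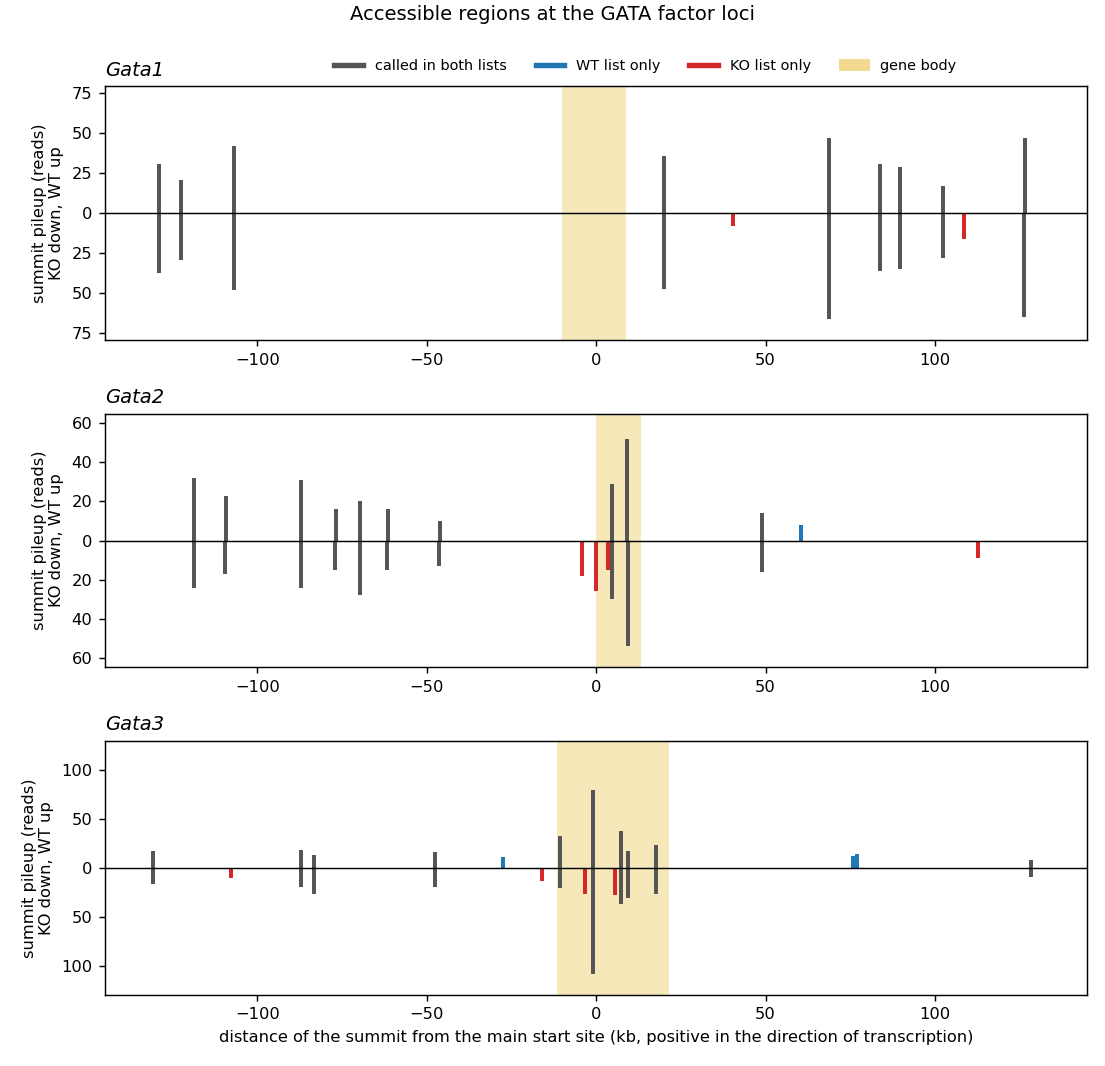
Summit pileup in reads at every region of the Gata1, Gata2 and Gata3 loci (WT upwards, KO downwards) against the distance from the main start site in kb. Grey marks regions in both lists, blue WT only and red KO only, and the shaded band is the gene body. Gata1 has no peak in its body, and 4 of the KO-only regions lie in the bodies of Gata2 and Gata3.

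At Gata2 the intronic enhancer and the proximal promoter were open in both genotypes, and the KO list had further peaks at the distal promoter, beside the proximal promoter and just upstream. The region of highest pileup at the locus was the +9.37 kb region in an intron, which holds the composite motif CATCTGCAGCCGGTAGATAA at chr6:88203185-88203204. Its pileup was 52 in WT and 54 in KO. Relative to the median of all shared regions, the log2 KO to WT ratio was −0.03, with an exact 95% binomial interval for counting error of −0.60 to 0.55. The intronic enhancer thus differed between the lists by less than its counting error, and the interval still admits a change of about 1.5-fold in either direction. Its fold enrichment was 6.04 in WT and 8.35 in KO, over local backgrounds of 7.78 and 5.59 reads.

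The proximal promoter, the +4.75 kb region in a noncoding first exon, had a pileup of 29 in WT and 30 in KO (log2 ratio −0.03, interval −0.82 to 0.76). Around it, the local background stood at 8.55 in WT and 6.75 in KO, or 7.16 and 6.00 times the lowest background of each list. The distal promoter was called in the KO list alone. The +0.06 kb region, within 64 bp of the start site, had a KO pileup of 26 over a local background of 5.12, a fold enrichment of 4.41. At that background, a WT pileup of 14 would have reached the lowest −log10 p in the WT list, so a WT signal below this value would be missing from the list without being absent from the cells. The WT pileup there is unknown. At the proximal promoter, the local background was higher in WT than in KO, as was the median over all peaks (1.85 and 1.67). A higher background raises the pileup a peak needs, and its part in the KO-only call was not tested.

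The other KO-only regions in or near the gene had lower pileups. The +3.53 kb region, 914 bp from the proximal start site, had a pileup of 15 and a fold enrichment of 2.63, 1 read above the same smallest pileup of 14. The −4.27 kb region, in an intron of the long noncoding RNA gene Gm38708 and shown above with its GATA motifs, had a pileup of 18 over a background of 3.24, where at that same background 11 would have reached the lowest −log10 p of the WT list. No peak was in the WT list only within 10 kb of the gene.

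**Figure D2:**
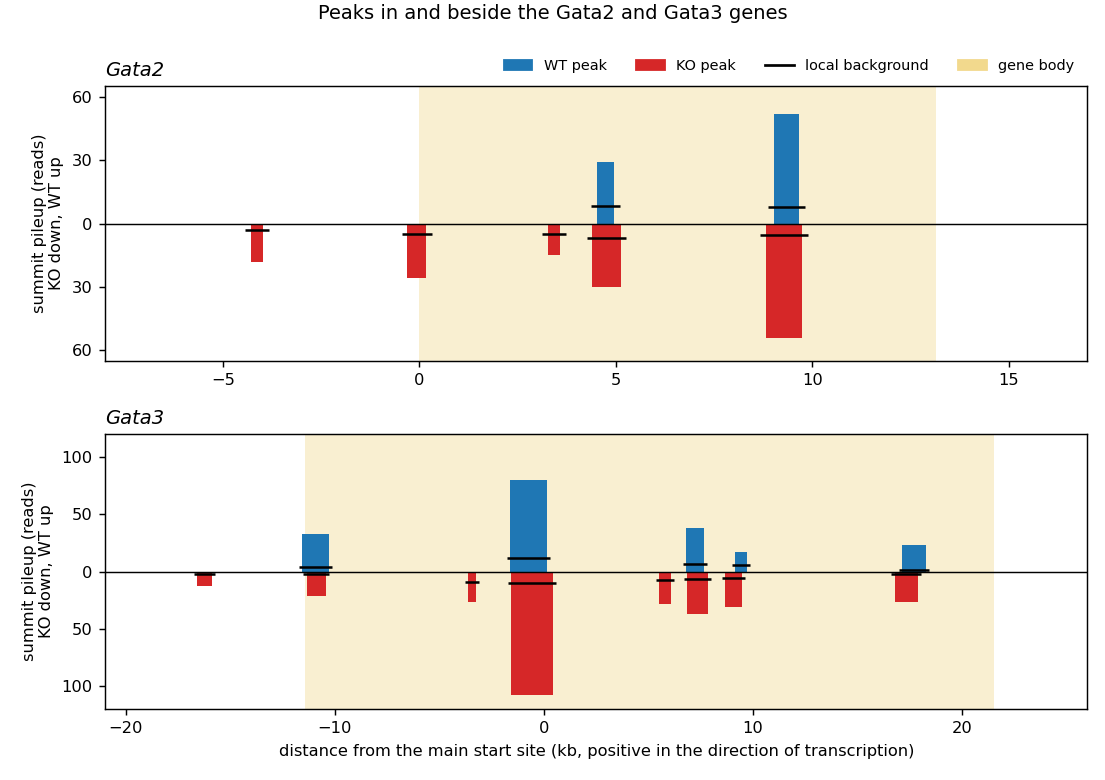
Peaks in and beside Gata2 and Gata3, drawn at their called width (horizontal axis, kb from the main start site) and summit pileup in reads (WT blue upwards, KO red downwards). Black lines give the local background, and at Gata2 the KO list has 3 peaks without a WT counterpart upstream of the shared pair.

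Peaks covered 1097 bp of the Gata2 body in WT and 2106 bp in KO, or 8.35% and 16.0% of its length, a 1.92-fold difference. Of all coding gene bodies covered in both lists, 12.6% were more than 1.5-fold higher in KO and 13.9% more than 1.5-fold lower. The KO list had 2 further regions in the body, and the shared pair was called wider in KO. The intronic peak was called 650 bp wide in WT and 912 bp in KO. For the proximal promoter peak, the widths were 447 and 715 bp. Over the gene with 120 kb on each side, covered bases were nearly level, 7410 bp in WT and 8140 bp in KO (1.10-fold).

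Away from the gene, the upstream flank of Gata2 was open in both lists. The −77.1 kb region, nearest to the position of the known upstream enhancer, had a pileup of 16 in WT and 15 in KO (log2 ratio −0.17, interval −1.29 to 0.94). At this pileup only a change much above 1.5-fold could have been seen. The furthest upstream regions had the lower KO pileups. The −118.7 kb region went from 32 to 24 (−0.50), the −109.4 kb region at the promoter of Rpn1, a subunit of the oligosaccharyltransferase, from 23 to 17 (−0.52), and the −87.1 kb region from 31 to 24 (−0.45). The −69.8 kb region stood on the other side, with 20 in WT and 28 in KO (0.40). The −61.6 kb and −46.3 kb regions had pileups of 16 and 15, and of 10 and 13. All of these intervals include 0. Downstream, the +48.9 kb region in an intron of Dnajb8, a chaperone gene, had 14 and 16. The region at +60.4 kb in an exon of Dnajb8 was in the WT list only with a pileup of 8. The region at +112.7 kb in an intron of Eefsec, an elongation factor for selenocysteine, was in the KO list only with 9.

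At Gata3 the gene body was the most widely covered of the 3, with the shared regions in both genotypes and further KO-only regions. The −1.09 kb region had its summit in an intron of a longer Gata3 transcript, 1089 bp from the nearest start site. Its peak covered the main Gata3 start site, chr2:9878600, in both lists. The peak ran over chr2:9878455-9880213 in WT and chr2:9878166-9880181 in KO. The main start site of Gata3 thus lay within a called peak in both genotypes. The region had a pileup of 80 in WT and 108 in KO. This was the highest pileup at the 3 loci in each list. Its log2 ratio was 0.35 with an interval of −0.08 to 0.79, a difference within counting error on this scale. By raw pileup the interval was 0.002 to 0.87, and over the genome-wide background 0.09 to 0.95, both above 0. Inside the gene, the +7.23 kb region had 38 in WT and 37 in KO (−0.12), and the +17.7 kb region 23 and 27 (0.15). The +9.24 kb region, with a CANNTG E-box beside a GATA motif, had 17 and 31 (0.79, interval −0.11 to 1.73). The −10.84 kb region, at the upstream end of the gene, lay within 1000 bp of a Gata3 start site and at the promoter of 9230102O04Rik. This region went the other way, with 33 in WT and 21 in KO (−0.73, interval −1.60 to 0.10). The higher and the lower region thus lay in the same gene body.

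The KO list alone had a peak at the +5.66 kb region, 736 bp from an internal Gata3 start site, with a pileup of 28 over a background of 7.18, where at that same background 17 would have reached it. It also had the −3.31 kb region at the promoter of 4930412O13Rik, which overlaps Gata3, with 27 over 9.36, where at that background 21 would have. The WT backgrounds at these positions are unknown. At the shared regions of the Gata3 body, background was higher in WT at −1.09, +7.23, +9.24 and −10.84 kb and lower at +17.7 kb (1.71 in WT and 1.76 in KO). Over all peaks, the median background was also higher in WT (1.85 and 1.67). Relative to the lowest background of each list, it stayed higher in WT at −1.09 and −10.84 kb. By that measure it was higher in KO at +7.23, +9.24 and +17.7 kb. The part of background in the KO-only calls was not tested. Further KO-only regions were at −15.97 kb with a pileup of 13 and at −107.7 kb in Taf3 with 10. The 3 WT-only regions lay outside the gene. They had pileups of 14 at +76.83 kb, 12 at +75.82 kb and 11 at −27.55 kb, the last at the promoter of Gm13262, an antisense transcript. The WT-only regions were thus in the flanks, while 2 of the 4 KO-only regions were in the body of Gata3.

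In the upstream flank of Gata3, most regions were introns of Taf3, a subunit of the general transcription factor TFIID. The −83.3 kb region, printed above, had 13 in WT and 27 in KO (0.97, interval −0.03 to 2.05). It was the largest ratio at the 3 loci. Its neighbour at −87.2 kb had 18 and 20 (0.07), the −47.7 kb region 16 and 20 (0.24) and the −130.8 kb region 17 and 16 (−0.17). In the other flank, the +128.4 kb region had 8 and 9. Peaks covered 5401 bp of the Gata3 body in WT (16.4%) and 6798 bp in KO (20.6%), a 1.26-fold difference. With the flanks of 120 kb included, they covered 9665 bp and 10284 bp (1.06-fold).

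Gata1 had no peak in its body in either list, as did 30.7% of coding genes. The stretch without any peak ran over 126.0 kb, at chrX:7948402-8074352. It held the whole of Gata1 and the coding gene Glod5. The promoters of Gata1 were therefore not open at a level the lists record, in WT or in KO. Of the 11 regions around it, 9 lay at the promoters of other genes, and the 2 others were in introns of Otud5, a deubiquitinase gene. The nearest was the +19.98 kb region at the promoter of Hdac6, a deacetylase, with 36 in WT and 47 in KO (0.30). The region shared by the promoters of Pqbp1 and Timm17b, at +68.65 kb, had 47 and 66 (0.41). The promoter of Suv39h1, a histone methyltransferase, had 42 and 48 (0.11), and that of Was, a regulator of the actin skeleton in blood cells, 21 and 29 (0.38). The 4 named here were all higher in KO, as were the others.

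Log2 ratios at the promoters of Otud5 (47 and 65), Slc35a2 (31 and 36), the kinase gene Pim2 (29 and 35) and Gm6787 (31 and 37) were 0.39, 0.13, 0.19 and 0.17. The largest ratio was at +102.4 kb in Otud5, with 17 in WT and 28 in KO (0.64, interval −0.28 to 1.60). All 9 shared regions at the Gata1 locus were above the median of all shared regions, with a median of 0.30, although by fold enrichment only 7 of 9 were. Over chromosome X as a whole, 790 shared regions had a median of −0.01 and 48.6% were above 0, and the 447 at promoters had a median of −0.08 and 42.3% above 0. No interval at Gata1 excluded 0 on this scale, whereas by fold enrichment that of the Otud5 promoter did (0.59, interval 0.02 to 1.16), and over the genome-wide background that of Pqbp1 and Timm17b (0.58, interval 0.01 to 1.15). The 2 KO-only regions were at the promoter of Eras, a Ras-like gene, with a pileup of 8, and in Otud5 with 16. Over all coding genes, 2.69% had a promoter peak in KO alone and 3.07% in WT alone. The window of Gata1 had 6519 covered bases in WT and 8360 in KO (1.28-fold).

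**Figure D3:**
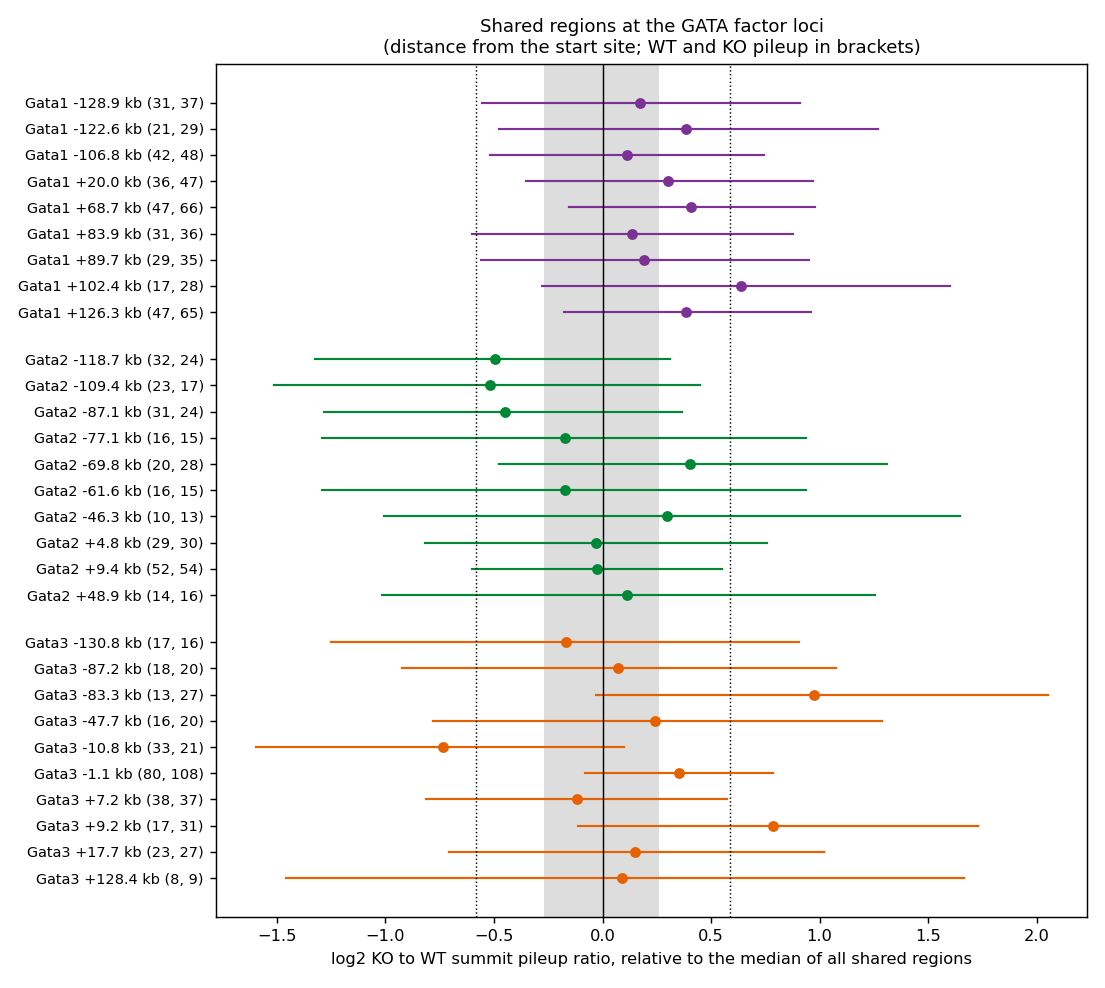
Log2 KO to WT ratio of summit pileup, relative to the median of all shared regions, for the 29 shared regions, with exact 95% binomial intervals (counting error only). The grey band is the interquartile range of all 28909 shared regions (−0.27 to 0.26) and dotted lines mark 1.5-fold. All 9 regions at Gata1 lie above 0, and every interval crosses 0.

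Of the 29 shared regions, 3 were past 1.5-fold higher in KO, beside 7.63% of all 28909 shared regions, and 1 was past 1.5-fold lower, beside 7.91%. Those 3 were in Otud5, Gata3 and Taf3, and the lower one was at the upstream end of Gata3. By fold enrichment, the Otud5 intron (0.39) and the upstream end of Gata3 (−0.28) were no longer past 1.5-fold and the Otud5 promoter was (0.59), which left 3 higher and 0 lower. In all, 19 of 29 were above 0, and 0 of the 29 intervals excluded it. The intervals depend on the scale, and 1 excluded 0 by fold enrichment, 2 by raw pileup and 4 over the genome-wide background, all on the higher side. By raw pileup these were the −1.09 kb region of Gata3 and the −83.3 kb region in Taf3, and over the genome-wide background also the +9.24 kb region of Gata3 and the promoter of Pqbp1 and Timm17b. The median was 0.30 at Gata1, −0.10 at Gata2, with 3 of 10 above 0, and 0.12 at Gata3, with 7 of 10. By fold enrichment, the median at Gata3 was −0.09, so its direction depends on the scale. Over all shared regions, the standard deviation of the ratio was 0.42.

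None of the 3 loci passed 1.5-fold in covered bases. Of 19520 coding gene windows with peaks in both lists, 2.95% were more than 1.5-fold higher in KO and 5.45% more than 1.5-fold lower. The log2 KO to WT ratio was 0.36 at Gata1, 0.14 at Gata2 and 0.09 at Gata3, beside a median of −0.02 and quartiles of −0.21 and 0.15 over all windows. Gata1 thus lay above the upper quartile and Gata2 and Gata3 inside it. Near the genes the contrast was larger at Gata2. With 10 kb on each side, 1097 bp were covered in WT and 2722 bp in KO, where 8.54% of coding genes were more than 1.5-fold higher in KO and 10.6% more than 1.5-fold lower.

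**Figure D4:**
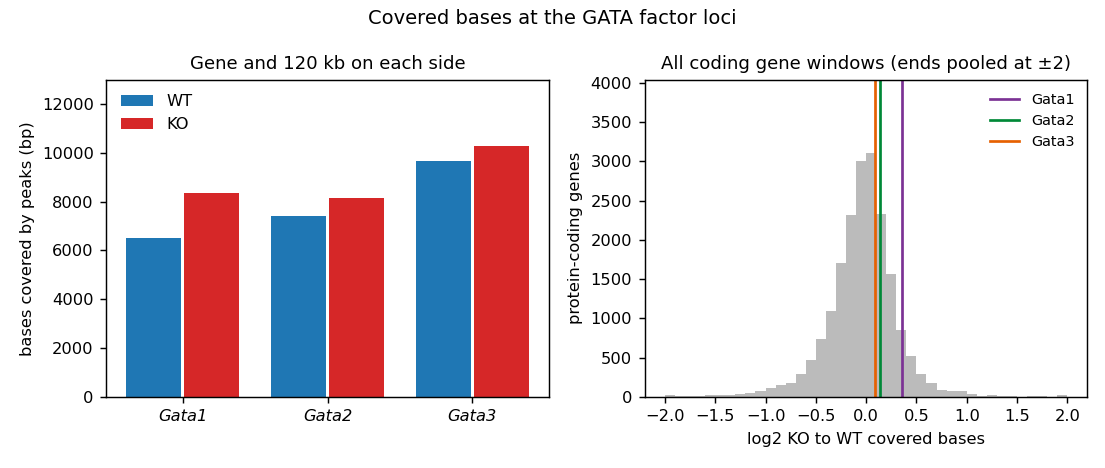
Left, bases (bp) under peaks within 120 kb of each gene, gene included, as bars for WT and KO. Right, the log2 KO to WT ratio of covered bases for the windows of 19520 protein-coding genes (grey), with the 3 loci as lines at 0.36 (Gata1), 0.14 (Gata2) and 0.09 (Gata3), all within 1.5-fold.

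GATA motifs were no more frequent at the GATA loci than elsewhere. Within 100 bp of the summit, AGATAA or AGATAG or TGATAA or TGATAG, on either strand, stood in 4 of 33 WT peaks (12.1%) and 8 of 39 KO peaks (20.5%), beside 22.0% over the whole WT list and 21.6% over the whole KO list. The composite motif, CANNTG followed after 6 to 10 bases by one of these on the same strand, stood within 100 bp of the summit only in the +9.37 kb region of Gata2, in both lists, beside 1.04% and 1.02% over the whole lists. Over the full length of the regions, 25 of 43 held a GATA motif (58.1%, beside 56.7% of all 45475 regions) and 4 a composite (9.30%, beside 3.17%), in the Gata2 intron, Dnajb8, the +9.24 kb region of Gata3 and Taf3. The regions at the loci had a median width of 710 bp and all regions one of 659 bp. The Gata2 intron held a further composite, CAAATGATTTGACTGATAA, at chr6:88202736-88202754 on the minus strand. This further composite lies in the KO peak but outside the WT peak, which starts at 88202909. The Taf3 composite lies in the WT peak but outside the KO peak, which ends at 9962026. The 200 bases around the summit of the Gata2 distal promoter held no GATA motif and were 79.5% G and C.

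Other motifs were searched in the same windows on both strands. An E-box (CAGCTG or CATCTG or CAGATG), which can be part of a composite, stood in 7 of 33 WT peaks (21.2%) and 4 of 39 KO peaks (10.3%), beside 23.9% and 24.5% of all peaks. An ETS motif (AGGAAG or CGGAAG) stood in 15 WT peaks (45.5%) and 17 KO peaks (43.6%), beside 47.4% and 48.5%. A RUNX motif (TGTGGTT or TGCGGTT) stood in 2 WT and 3 KO peaks (6.06% and 7.69%), beside 10.6% and 10.8%. An AP1 motif (TGANTCA) stood in 3 of each (9.09% and 7.69%), beside 7.72% and 7.93%, all in Gata2 and Gata3 regions in WT and in Gata3 regions in KO. A match describes letters only and is no sign of binding.

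Of 13 genes that encode partners of GATA factors, 11 had a promoter peak in both lists, the exceptions being Fli1 and Klf1, beside 58.1% of all coding genes. Their covered bases had a median log2 KO to WT ratio of −0.15, with 5 of 13 higher in KO. Beside 2.95% and 5.45% of all coding gene windows, none was past 1.5-fold higher and 1 was past 1.5-fold lower. That was Zfpm2, which encodes the cofactor FOG2, at −0.66, whereas Zfpm1, which encodes FOG1, the cofactor of GATA1 in blood, stood at 0.44. Tal1 (−0.30), Lmo2 (−0.28) and Runx1 (−0.44) had fewer covered bases in KO and Ldb1 (0.29) more. Of the GATA genes used in other tissues, Gata6 had a promoter peak in both lists, with a pileup of 25 in WT and 23 in KO, and Gata4 and Gata5 had none. Their window ratios were −0.31, −0.35 and 0.12.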

How the data were processed

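ATAC-seq samples of sorted HSCs from WT and KO mice (2 per genotype) were represented by 1 peak list per genotype, and whether the replicates were pooled is not given in the sources used here. By the submitters' processing notes and the study's methods, the authors trimmed reads with Trim Galore, aligned them to mm10 with Bowtie2, processed them with Picard and called peaks with MACS2 without a fragment model. Versions and the placement of reads at the transposase cut are not given in the sources used here. The deposited lists hold the authors' fold enrichment (a ratio to the local background), −log10 p and −log10 q per peak. The authors' whole-number score, made for display, was not used. The deposited summit lists repeat the summits and −log10 q.

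Python 3.11.15 (NumPy 2.4.6, pandas 2.3.3, SciPy 1.17.1) was used. Pileups were solved from fold enrichment and −log10 p under a Poisson model, and in each list 99.99% came out whole, to within 0.001 of the −log10 p. Peaks overlapping by at least 1 bp were joined into regions. KO to WT ratios used regions with 1 peak of each list, without a pseudocount, and were centred on their median, 0.08 on the log2 scale. The lists give no read counts to set their scale, so the main ratios are relative. The genome-wide background, used as an alternative scale, was the lowest background of each list (1.19 in WT and 1.13 in KO). Past 1.5-fold counted as called. Intervals cover counting error only, and fragments and peaks are not replicates. Promoters were within 1000 bp of a GENCODE M21 start site on GRCm38.p6, and 0 peaks lay beyond a chromosome end. The steps were tested on simulated data. The regions named were those in the gene or within 10 kb, the strongest further out, that nearest to the known upstream Gata2 enhancer and those in 1 list only, and the other regions are given by their pileups. Members, lists and rules were chosen with earlier results of these data known. Alternatives were other windows, thresholds, overlaps, scales and motif windows. Some genes of the marker lists are not reported by name here.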

Additional observations from a re-analysis of the deposited data

How the results depend on the processing

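No paired analysis was possible because the peaks come as a single list for WT and for KO, with no replicate number, and for the same reason no replicate could be left out. Of 92 recomputed values, 66 stayed near the main value and 26 moved. Near meant inside the counting interval for shares, within 1.5-fold for counts and covered bases, and within the standard deviation of region ratios for medians. None of the main medians or covered-base ratios passed 1.5-fold, so no call among them could be reversed. The 87 ratios of single regions on other scales stayed within their intervals, but calls past 1.5-fold changed. By fold enrichment, the Otud5 intron (0.39) and the upstream end of Gata3 (−0.28) lost theirs and the Otud5 promoter gained one (0.59), and over the genome-wide background the upstream end of Gata3 lost its call (−0.57). With 10 kb on each side, 100% of WT peaks at Gata2 (2 of 2) and 100% at Gata3 (5 of 5) had a KO match. Of the KO peaks at Gata2, 40% (2 of 5) had a WT match. Over the loci, 0 of 7 WT and 6 of 13 KO peaks were unmatched, and covered bases at Gata2 had a log2 ratio of 1.31. Gata1 then has no peak and gives no value. With 50 kb, 50% of KO peaks at Gata1 (1 of 2) were matched, and over the loci 2 of 13 WT peaks were unmatched. The Gata1 log2 ratio was 1.11, from 537 bp in 1 WT peak and 1160 bp in 2 KO peaks. The share of coding gene windows of 50 kb past 1.5-fold was not computed, so this ratio has no background. Keeping peaks of −log10 q 5 or more, 100% of WT peaks at Gata2 were matched and 2 WT peaks were not. Keeping those of 10 or more, 100% were matched at Gata2 and at Gata3, 0 WT and 5 KO peaks were unmatched, and the median log2 ratio at Gata2 was −0.43. Over all peaks at that threshold, 10.7% of WT and 24.4% of KO peaks had no match. With the threshold of 5 set in the own list against the whole other list, an alternative chosen after seeing the data, 100% of WT peaks at Gata2 were matched, and 2 WT and 6 KO peaks were not. With an overlap of 50% of both peaks, 9 of 33 WT and 15 of 39 KO peaks were unmatched. With summits within 100 bp, 10 WT and 16 KO peaks were. The shares of the whole lists by these overlap rules and at the threshold of 5 were not computed, so these counts have no background. For the windows of 10 kb and 50 kb, the unmatched shares over all peaks are 21.7% in WT and 20.7% in KO. The share of peaks with a GATA motif was 0% in WT and 7.69% in KO within 50 bp of the summit, beside 11.3% of all peaks of each list, and 36.4% and 38.5% within 200 bp, beside 39.1% and 38.9%. The sign of an uncalled median changed at Gata2 with 50 kb (0.04) and over the genome-wide background (0.06), and at Gata3 with fold enrichment (−0.09). Over all shared regions, fold enrichment shifts the median by 0.26 and the genome-wide background by 0.17. The cause was not tested. Pileups at the 3 loci reached at most 80 (WT) and 108 (KO) and were as low as 8, which limits what a single region can show.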
